A study of Mus musculus with 24 samples.

Results

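The mitochondrially encoded RNAs are the genes in both count tables whose symbol starts with mt-. The rule found 37 genes among 47937, which are all the genes annotated on the mouse mitochondrial genome of GRCm38, a circle of 16299 bases: 22 tRNA genes, 2 rRNA genes and 13 protein genes. RNA was sequenced from 4 mouse embryonic stem (ES) cell lines of the strain background 129/Sv x C57Bl6, in 8 RNA-seq libraries and in 16 MeRIP-seq libraries (8 inputs and 8 immunoprecipitates, IP, with an antibody to N6-methyladenosine, m6A), with 2 replicates in each group. WT26 is a wild-type line, and the Mettl14 KO line is a single CRISPR clone made from it with a small homozygous frameshift deletion in Mettl14. RBC is an engineered wild-type line that carries a BirA-V5 insertion at Rosa26 and a Cre-ERT2 transgene, and the Mettl3 KO line is a clone derived from RBC cells. The labels name no treatment in any group, the cells were grown on gelatin with LIF, and the Mettl3 KO line shares the insertion and transgene of RBC. The methods describe RNA from isolated nuclei, whereas the labels give total RNA. Replicates are called biological in the methods, and nothing else says that they were separate cultures, so that p-values measure the spread between these libraries only.

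The mitochondrial genome is read from both strands into long transcripts, which are cut at the tRNAs that lie between most of the other genes. Its protein genes encode subunits of the respiratory chain (complex I, III and IV) and of the ATP synthase, and its 2 rRNAs, mt-Rnr1 and mt-Rnr2, form the mitochondrial ribosome with proteins imported from the cytoplasm. METTL3 and METTL14 form the complex that writes m6A on RNA made in the nucleus. The libraries were made with a kit that removes cytoplasmic and mitochondrial rRNA, so a level of mt-Rnr1 or mt-Rnr2 is that of the RNA left after removal.

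On the mitochondrial genome of GRCm38, mt-Rnr1 lies at positions 70 to 1024 and mt-Rnr2 at 1094 to 2675, followed by mt-Nd1 at 2751 to 3707, mt-Nd2 at 3914 to 4951 and mt-Co1 at 5328 to 6872. mt-Nd5 lies at 11742 to 13565 and mt-Cytb at 14145 to 15288. These genes are read from the plus strand, and mt-Nd6 (13552 to 14070) and 8 tRNA genes from the minus strand, mt-Te (14071 to 14139) and mt-Ts1 (6870 to 6938) among them.

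The libraries held 11321459 to 13743181 reads in RNA-seq and 9394163 to 28441282 in MeRIP-seq. The 10 pluripotency markers examined had between 330.4 (Utf1) and 12265 (Tdgf1) normalised counts in every RNA-seq library, and the 8 fibroblast markers between 0 and 98.6 (Thy1), with the defining marker Dcn at 0 in all 8. The pluripotency markers themselves moved: 10 of 10 fell in Mettl14 KO against WT26, 9 fell and 1 rose in Mettl3 KO against RBC, and 6 were lower in RBC than in WT26. Of all 17022 tested genes, 27.0% fell in Mettl14 KO, 28.1% fell and 25.3% rose in Mettl3 KO, and 19.2% were lower in RBC. The largest falls of these markers were those of Nanog (-0.79) and Tdgf1 (-0.63) in Mettl14 KO and of Dppa5a (-2.03, from 4793 and 4948 to 1144 and 1237 normalised counts) and Tdgf1 (-1.32) in Mettl3 KO cells. Of the fibroblast markers, Thy1 fell in both knockouts (-2.03 and -2.62). Col1a2 went the other way on few reads, with 1.81 and 1.07 (WT26), 4.01 and 5.85 (Mettl14 KO), 6.90 and 2.96 (RBC) and 22.6 and 24.2 (Mettl3 KO). Col1a1 overlapped between each knockout and its control. The part of both sets of markers in the mitochondrial differences was not tested. Reads were still counted on the gene targeted in each knockout: Mettl14 had 296 and 316 normalised counts in Mettl14 KO and 401 and 358 in WT26 cells, and Mettl3 had 880.0 and 821 in Mettl3 KO and 928 and 979 in RBC cells. A normalised count is a count divided by the library's size factor.

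A stretch of the nuclear genome repeats part of the mitochondrial genome almost without change, and the members inside it were counted differently in RNA-seq and MeRIP-seq. On chr1:24611535-24616188 of GRCm38, on the minus strand, 4654 aligned bases matched mitochondrial positions 6390 to 11042 with 99.936% identity, 2 mismatches and 1 gap base. Both mismatches are shown in windows of the annotated genome, with the base that differs in capitals, since a read that covers neither of them nor the gap cannot be assigned to one of the 2 places by its sequence. Substitutions are written with the mitochondrial base first and count positions from the start of the mitochondrial genome. The first, A6393T, lies in mt-Co1 (window from 6390 to 6407), and the second, T9461C, lies in mt-Nd3 (window from 9447 to 9475). The second window begins in mt-Tg, which ends at 9458, and mt-Nd3 starts at 9459.
mt-Co1, mitochondrial genome: ggaAttgttttatccaac
mt-Co1, copy on chromosome 1: ggaTttgttttatccaac
mt-Nd3, mitochondrial genome: cagaagagagtaatTaacctgtacactgt
mt-Nd3, copy on chromosome 1: cagaagagagtaatCaacctgtacactgt

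Of the 37 genes, 11 lie wholly inside this stretch: the protein genes mt-Co2, mt-Atp8, mt-Atp6, mt-Co3, mt-Nd3 and mt-Nd4l and the tRNA genes mt-Ts1, mt-Td, mt-Tk, mt-Tg and mt-Tr. In RNA-seq they had between 0 and 8 reads each in a library, and between 6 and 17 reads together. In the inputs of MeRIP-seq the same 11 genes had between 5210 and 54184 reads together. The methods name TEtranscripts in its mode for reads with several positions for MeRIP-seq, while the counting tool of RNA-seq and its treatment of such reads are not given in the sources used here. mt-Co1 and mt-Nd4 lie partly inside, with 1062 of 1545 and 502 of 1378 bases outside the stretch, and had between 2188 and 220264 reads in an RNA-seq library. Levels per length given here for mt-Co1 and mt-Nd4 use the whole gene length.

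The annotated copies on chromosome 1 took reads as well. In RNA-seq the copies of 5 whole protein genes had few reads too: mt-Co2 and its copy Gm28661 together had 54.3 and 41.9 normalised counts in WT26 cells, against 13853 and 14896 in the WT26 inputs. In the inputs summed over the 4 lines, the mitochondrial gene held 61.8% of the reads of mt-Co2 and Gm28661, 63.7% of mt-Atp6 and Gm10925, 25.7% of mt-Co3 and Gm28437, 7.59% of mt-Nd4l and Gm10222 and 1.42% of mt-Nd3 and Gm28438. In the IPs these shares were 52.5%, 55.0%, 38.0%, 17.6% and 5.36%. Single libraries lay far from these sums. The share on mt-Co2 ran from 34.9% to 89.3% in the inputs and from 12.5% to 70.1% in the IPs, that on mt-Atp6 from 40.3% to 84.9% and from 10.2% to 71.3%, and that on mt-Co3 from 13.8% to 31.5% and from 9.0% to 53.2%. The split between gene and copy thus differed from gene to gene and from library to library, and the values of these 5 genes alone are uncertain.

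Some tRNA genes could be measured in 1 of the tables only. mt-Td, mt-Tk and mt-Tg had no read in any RNA-seq library, where a count of 0 allows up to 3 reads in a library. The minus-strand tRNA genes mt-Tq, mt-Ta, mt-Tn, mt-Tc and mt-Ty, which carry glutamine, alanine, asparagine, cysteine and tyrosine and lie side by side but for mt-Tq, had no read in any of the 16 MeRIP-seq libraries. In RNA-seq the same 5 genes were counted, mt-Tq with 16 to 56 and mt-Tc with 6 to 30 reads in a library. A gene entered the fits if it passed edgeR's filter on low counts, which 19 members did in RNA-seq (both rRNAs, 7 protein genes and 10 tRNA genes) and 29 in MeRIP-seq (both rRNAs, all 13 protein genes and 14 tRNA genes).

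Mitochondrial RNA was a small part of every RNA-seq library and took a larger part of the RBC libraries. The share of reads on the 37 genes was 1.65% and 1.7% (WT26), 2.25% and 2.18% (Mettl14 KO), 4.22% and 2.75% (RBC) and 1.82% and 1.61% (Mettl3 KO). Both Mettl14 KO libraries lay above both WT26 libraries, both RBC libraries lay above all others, and Mettl3 KO libraries overlapped with those of WT26. The protein genes alone took 1.23% and 1.19% (WT26), 1.31% and 1.39% (Mettl14 KO), 2.04% and 2.11% (RBC) and 1.01% and 1.01% (Mettl3 KO), so that replicates lay close together. The rRNAs took 0.423% and 0.504%, 0.934% and 0.783%, 2.18% and 0.634% and 0.807% and 0.598% in the same order of lines, and replicate 1 of RBC stood far above the other 7 libraries. A kit for removing rRNA was used in every library, and how well it worked in each was not tested. In bulk libraries, fewer cells with a transcript and less of it per cell cannot be told apart, and how much mitochondrial RNA each nuclear preparation kept was not measured.

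The 6 protein genes wholly inside the copied stretch had between 0 and 8 RNA-seq reads each in a library and could not be ranked there. Of the other 7, mt-Co1, a subunit of complex IV, was the highest per length in all 8 RNA-seq libraries. It had 4616 to 10434 RPKM (reads per kilobase of gene, scaled to the library total). mt-Nd1 followed with 986 to 2289 and mt-Cytb, the mitochondrial subunit of complex III, with 567 to 1423. mt-Nd2, mt-Nd4 and mt-Nd5, further subunits of complex I, lay at 137 to 328, 129.7 to 269.9 and 137 to 228, ranges that overlapped with each other. Of mt-Nd4, 876 of 1378 bases lie in the copied stretch. If few RNA-seq reads were counted there, its value is too low, so its place beside mt-Nd2 and mt-Nd5 is uncertain. mt-Nd6, the only protein gene on the minus strand, was the lowest of the 7 with 40.5 to 124. In the inputs mt-Co1 was again the highest with 2082 to 5065, and mt-Co2, mt-Atp6 and mt-Co3 with the reads of their copies added reached 619 to 1845, 568 to 1580.0 and 679.6 to 1955. mt-Rnr2 had 2150.5 to 9960.5 in RNA-seq and 4319.8 to 18399 in the inputs.

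**Figure D1:**
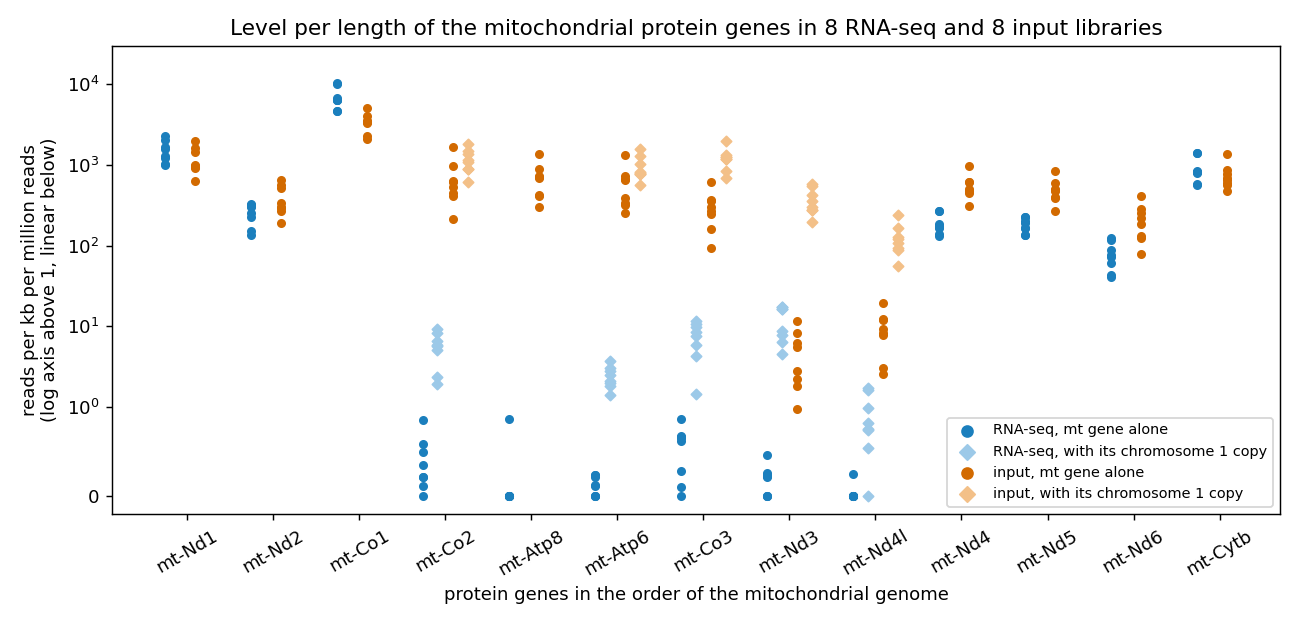
RPKM (vertical axis, logarithmic above 1 and linear below) of the 13 protein genes in their order on the mitochondrial genome, with 1 point for each RNA-seq library (blue) and each input (orange) and pale diamonds where the reads of the chromosome 1 copy were added. The genes inside the stretch copied on chromosome 1 lie below 1 in RNA-seq without the copies. mt-Co1 is the highest protein gene in the inputs, and in RNA-seq the highest of those not wholly inside the stretch.

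The comparison of Mettl14 KO with WT26 cells asked whether these RNAs differ in the line with the frameshift deletion in Mettl14. Mitochondrial RNAs were higher in Mettl14 KO cells: of the 19 tested members 13 rose and 0 fell at an adjusted p of at most 0.05 in edgeR's quasi-likelihood test, where 25.5% of all 17022 tested genes rose and 27.0% fell. The 5 complex I and III genes mt-Nd1, mt-Nd2, mt-Nd5, mt-Nd6 and mt-Cytb rose, while mt-Co1 and mt-Nd4 did not pass the test. The other called members were 7 tRNA genes and mt-Rnr2. The log2 fold change was positive for all 19, with a median of 1.13, against a median of 0.00 over all tested genes. By kind, the median was 1.46 for the 10 tRNA genes, which had few reads, 0.53 for the 7 protein genes and 0.91 for the 2 rRNAs. The members share libraries and long transcripts, so their signs and calls are not independent, here and in the comparisons below.

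The largest rise among protein genes was that of mt-Nd2, with 1946 and 1724 normalised counts in WT26 and 3878 and 4185 in Mettl14 KO cells, a log2 fold change of 1.13 (SE 0.0601, adjusted p = 5.1e-11). mt-Nd1 had 12021 and 11464 in WT26 and 18854 and 19466 in Mettl14 KO cells, a log2 fold change of 0.71 (SE 0.0608, adjusted p = 2.7e-08). mt-Nd6, with 276 and 256 against 396 and 454, differed by 0.67 (SE 0.101, adjusted p = 2.2e-05). In each of these 3 genes both knockout libraries lay above both WT26 libraries. mt-Cytb had 8021 and 7891 in WT26 and 11307 and 11627 in Mettl14 KO cells, a difference of 0.53 (SE 0.0505, adjusted p = 1.0e-07). mt-Nd5 had 3667 and 3036 and 3772 and 4503, a log2 fold change of 0.30 (SE 0.105, adjusted p = 0.0222), and its call was lost without replicate 2 of Mettl14 KO (0.17, adjusted p = 0.282) or replicate 2 of WT26 (0.17, adjusted p = 0.259) and with DESeq2's Wald test (adjusted p = 0.248). mt-Co1 was close to level, with 121094 and 118474 in WT26 and 122881 and 127421 in Mettl14 KO cells and a log2 fold change of 0.06 (SE 0.0468, adjusted p = 0.272). mt-Nd4 overlapped between the lines, with 2850.4 and 2349 against 2813 and 3104 and a log2 fold change of 0.19 (SE 0.0936, adjusted p = 0.107). Without replicate 1 of WT26 mt-Nd4 was called, at 0.33 (adjusted p = 0.0159), as it was with only the 4 libraries compared (0.19, adjusted p = 0.0112) and with no filter on low counts (adjusted p = 0.00156).

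The tRNA genes had few reads and large differences. They are 59 to 75 bases long, and a read of a longer uncut transcript can be counted on them. Whether the reads came from cut tRNAs or from such transcripts was not measured, in RNA-seq or in MeRIP-seq. mt-Ti, the isoleucine tRNA, had 4.52 and 4.29 normalised counts in WT26 and 41.1 and 30.2 in Mettl14 KO cells, a log2 fold change of 2.97 (SE 0.436, adjusted p = 1.7e-05). mt-Tl1, a leucine tRNA, rose from 3.62 and 2.15 to 22.0 and 18.5 (2.73, SE 0.592, adjusted p = 0.00085). Both groups were separate in both genes, although the WT26 level rested on few reads. mt-Tw, the tryptophan tRNA, had 27.1 and 23.6 against 91.1 and 82.8, a difference of 1.76 (SE 0.211, adjusted p = 1.6e-06), and mt-Tp, the proline tRNA, 46.1 and 46.2 against 105 and 134, a difference of 1.38 (SE 0.189, adjusted p = 8.4e-06). In mt-Tw and mt-Tp the lines did not overlap either. mt-Tt, the threonine tRNA, had 21.7 and 14 in WT26 and 51.1 and 54.6 in Mettl14 KO cells, a difference of 1.54 (SE 0.269, adjusted p = 0.000112). mt-Tm, the methionine tRNA, had 19.0 and 19.3 and 39.1 and 49.7, a difference of 1.21 (SE 0.267, adjusted p = 0.0010). mt-Te, the glutamate tRNA that lies next to mt-Nd6 on the minus strand, had 3.62 and 3.22 in WT26 and 12 and 16.6 in Mettl14 KO cells. It rose by 2.02 (adjusted p = 0.00453), and its adjusted p was 0.0539 without replicate 2 of Mettl14 KO and 0.0732 in DESeq2. The minus-strand tRNAs mt-Tq, mt-Ta and mt-Tc did not pass, with log2 fold changes of 0.28, 1.31 and 1.15 (adjusted p = 0.506, 0.0545 and 0.089).

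Of the rRNAs, mt-Rnr2 (the large subunit rRNA) had 41584 and 48772 normalised counts in WT26 and 92213 and 78535 in Mettl14 KO cells, a log2 fold change of 0.92 (SE 0.286, adjusted p = 0.012). Without replicate 1 of Mettl14 KO the adjusted p was 0.0787, without replicate 1 of WT26 it was 0.0832, and in DESeq2 it was 0.202. mt-Rnr1 (the small subunit rRNA) had 10142 and 12487 against 24423 and 17836, a log2 fold change of 0.90 (SE 0.401, adjusted p = 0.0684) that did not pass. For both rRNAs the knockout libraries lay above the WT26 libraries. The fit estimates the spread over all 4 lines, so the gap between the RBC replicates described later enters the error of both rRNAs here. With only the 4 libraries compared mt-Rnr1 was called at the same log2 fold change of 0.90 (adjusted p = 2.2e-09). It was also called with no filter on low counts (0.90, adjusted p = 2.7e-110) and with the replicate number as a block (0.81, adjusted p = 0.0358), and DESeq2 did not call it. At an unchanged log2 fold change, the p of the unfiltered fit rests on a far smaller estimate of the spread. With 2 libraries a line, so small a p is not a credible measure of that spread.

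**Figure D2:**
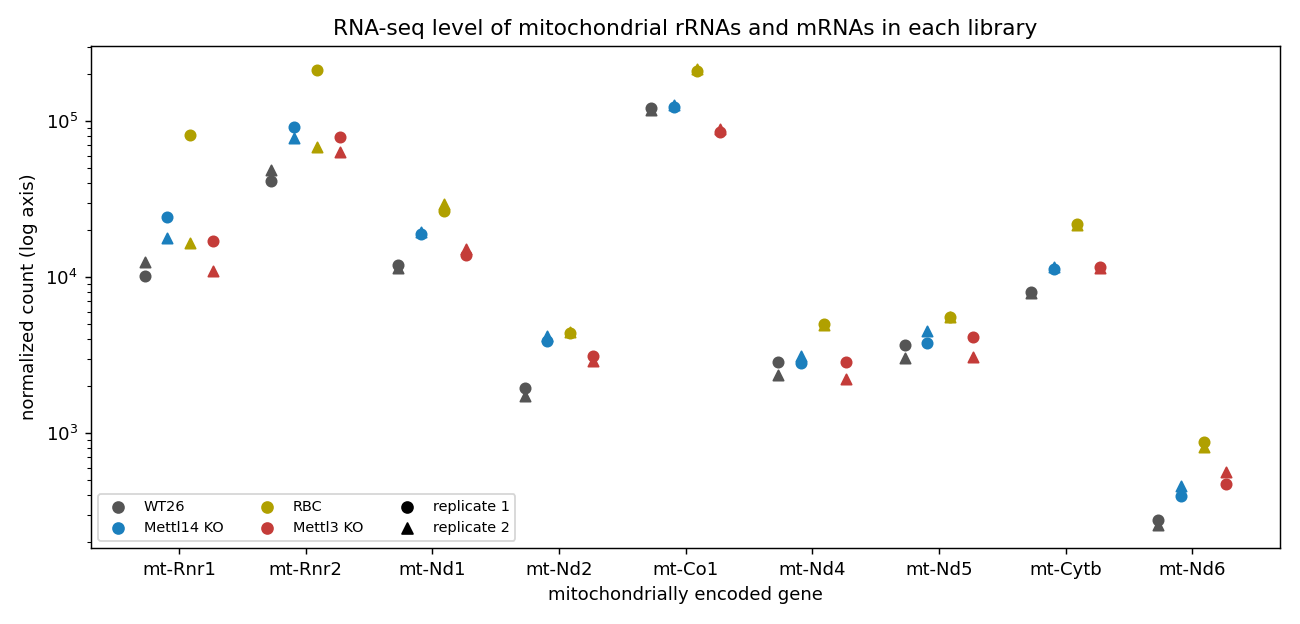
Normalised counts (vertical axis, logarithmic) of both rRNAs and 7 protein genes in the 8 RNA-seq libraries, with 1 colour per line, circles for replicate 1 and triangles for replicate 2. RBC libraries are the highest in the 7 protein genes, and replicate 1 of RBC stands apart in mt-Rnr1 and mt-Rnr2, with 81404 and 213455.

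In Mettl3 KO cells, compared with their parent line RBC, mitochondrial RNAs were lower. Of the 19 tested members 0 rose and 12 fell, where 25.3% of all tested genes rose and 28.1% fell. All 7 protein genes, both rRNAs and the tRNA genes mt-Tq, mt-Tc and mt-Tt fell. The log2 fold change was negative for all 19, with a median of -0.71, against 0.00 over all tested genes. By kind, the median was -0.51 for the tRNA genes, -0.92 for the protein genes and -1.40 for the rRNAs.

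mt-Co1, which did not pass the test in the other knockout, fell the most among protein genes, from 211136 and 217143 normalised counts in RBC to 85226 and 89581 in Mettl3 KO cells, a log2 fold change of -1.29 (SE 0.0475, adjusted p = 4.3e-13). mt-Nd4 had 5037 and 4933 in RBC against 2869 and 2213 in the knockout (-0.97, SE 0.0932, adjusted p = 9.9e-08). mt-Nd1 had 26742 and 29502 and 13909 and 15228, a log2 fold change of -0.95 (SE 0.0609, adjusted p = 5.3e-10). In these genes the lines did not overlap. mt-Cytb fell from 22049.6 and 21449.7 to 11543 and 11470.5 (-0.92, SE 0.0506, adjusted p = 7.6e-11). mt-Nd6 had 874 and 810.4 in RBC against 471 and 562 in the knockout (-0.71, SE 0.0887, adjusted p = 2.7e-06), mt-Nd5 5582 and 5591 and 4140.2 and 3093 (-0.63, SE 0.105, adjusted p = 6.8e-05). The smallest fall was that of mt-Nd2, from 4364 and 4424 to 3124 and 2905 (-0.54, SE 0.0587, adjusted p = 4.3e-07), the gene that rose the most in Mettl14 KO cells. None of these 7 calls was lost when any 1 library was left out.

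Among the tRNA genes, mt-Tq, the glutamine tRNA, had 56.3 and 55.2 normalised counts in RBC against 18.3 and 27.2 in the knockout, a log2 fold change of -1.31 (SE 0.258, adjusted p = 0.000341). mt-Tt had 77.0 and 82.8 and 36.5 and 49.4, a difference of -0.91 (SE 0.211, adjusted p = 0.00145). mt-Tc, the cysteine tRNA, had 26.4 and 29.6 in RBC against 5.22 and 20.1 in the knockout (-1.20, SE 0.417, adjusted p = 0.0221), with the knockout replicates far apart. Without replicate 2 of Mettl3 KO the difference was -2.40. Its call was lost without replicate 1 of Mettl3 KO (-0.47, adjusted p = 0.345) or replicate 2 of RBC (-1.11, adjusted p = 0.102) and in DESeq2 (adjusted p = 0.171). The other 7 tRNA genes, mt-Tl1, mt-Ti, mt-Tm, mt-Tw, mt-Ta, mt-Te and mt-Tp, had log2 fold changes between -0.61 and -0.08 and did not pass.

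The rRNA values of this comparison rested on 1 library. mt-Rnr1 had 81404 and 16659 normalised counts in RBC against 16996 and 10969.9 in the knockout, a log2 fold change of -1.81 (SE 0.41, adjusted p = 0.00115). Replicate 1 of RBC lay above both knockout libraries, and replicate 2 of RBC lay between them. Without replicate 1 of RBC the log2 fold change was -0.25 (adjusted p = 0.227), and without replicate 2 of RBC it was -2.54. mt-Rnr2 had 213455 and 68793 in RBC against 79393 and 63102 in the knockout, a log2 fold change of -0.99 (SE 0.286, adjusted p = 0.00746), and without that library it was 0.05 (adjusted p = 0.729), with the sign reversed. Without replicate 2 of RBC it was -1.58 (adjusted p = 9.1e-11). DESeq2 did not call mt-Rnr2 (adjusted p = 0.157). The fall of both rRNAs was thus not seen in the other RBC library, whereas that of the protein genes was.

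The control lines themselves differed, which the design lets one see by comparing RBC with WT26. Of the 19 tested members 18 were higher in RBC and 0 lower, where 19.6% of all tested genes were higher and 19.2% lower. Only mt-Te did not pass (1.28, SE 0.616, adjusted p = 0.112). The median log2 difference was 1.64, against -0.01 over all tested genes. By kind, it was 1.95 for the tRNA genes, 1.26 for the protein genes and 1.88 for the rRNAs. These values share the WT26 libraries with the comparison of Mettl14 KO and the RBC libraries with that of Mettl3 KO, and are therefore given side by side with them and not as separate support.

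The order of the lines differed between protein genes. For mt-Cytb the levels were 8021 and 7891 (WT26), 11307 and 11627 (Mettl14 KO), 22049.6 and 21449.7 (RBC) and 11543 and 11470.5 (Mettl3 KO). WT26 was lowest, Mettl14 KO and Mettl3 KO cells lay close together, and RBC stood above all others. Between RBC and WT26 mt-Cytb differed by 1.45 (SE 0.0512, adjusted p = 3.1e-13), mt-Nd6 by 1.66 (SE 0.0961, adjusted p = 3.2e-10) and mt-Nd1 and mt-Nd2 by 1.26 and 1.26 (adjusted p = 3.0e-11 and 2.4e-11). mt-Co1, mt-Nd4 and mt-Nd5 differed by 0.84, 0.94 and 0.74 (adjusted p = 2.1e-10, 3.2e-07 and 2.3e-05). For mt-Co1 the order was another one, with Mettl3 KO lowest, WT26 and Mettl14 KO between 118474 and 127421, and RBC highest. In mt-Nd1 and mt-Nd2 both Mettl14 KO libraries lay above both Mettl3 KO libraries (mt-Nd1, 18854 and 19466 against 13909 and 15228). In mt-Nd4 the WT26 libraries overlapped with those of both knockouts, and in mt-Nd5 with those of Mettl3 KO.

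The tRNA genes differed between the control lines by up to 3.04 (mt-Tl1, adjusted p = 0.000361), with mt-Ta at 2.36, mt-Ti at 2.27, mt-Tt at 2.14, mt-Tc at 2.12, mt-Tq at 1.77, mt-Tp at 1.64 and mt-Tw at 1.54 (largest adjusted p = 0.00196, mt-Tc). mt-Tm differed by 0.97 (SE 0.279, adjusted p = 0.0101), a call lost without replicate 2 of RBC (0.80, adjusted p = 0.111) or replicate 1 of WT26 (0.95, adjusted p = 0.0603) and in DESeq2 (adjusted p = 0.11). mt-Rnr1 differed by 2.12 (SE 0.414, adjusted p = 0.000517) and mt-Rnr2 by 1.64 (SE 0.291, adjusted p = 0.00020). Without replicate 1 of RBC these were 0.56 (adjusted p = 0.0127) and 0.61 (adjusted p = 6.8e-05), both still called and much smaller, and without replicate 2 of RBC they were 2.85 and 2.24.

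The change against the control line was tested for a difference between the knockouts. All 19 members passed this test in edgeR with a higher change in Mettl14 KO, where 22.4% of all tested genes passed in this direction and 20.8% in the other. DESeq2's Wald test called 13 of the 19, and mt-Rnr2, mt-Tq, mt-Tm, mt-Ta, mt-Tc and mt-Te did not pass there (adjusted p = 0.051, 0.0692, 0.0588, 0.102, 0.0672 and 0.155). Among protein genes the difference ran from 0.93 (SE 0.149, adjusted p = 6.7e-05) for mt-Nd5 to 1.68 (SE 0.084, adjusted p = 7.6e-11) for mt-Nd2, with mt-Co1 at 1.36 (SE 0.0665, adjusted p = 6.1e-11). mt-Rnr1 differed by 2.71 (SE 0.572, adjusted p = 0.000905) and mt-Rnr2 by 1.90 (SE 0.405, adjusted p = 0.000955), and without replicate 1 of RBC by 1.15 (adjusted p = 0.000201) and 0.87 (adjusted p = 1.8e-05), and without replicate 2 of RBC by 3.44 and 2.50. Without replicate 1 of Mettl3 KO the difference of mt-Ti moved from 3.57 to 4.23 and that of mt-Tl1 from 3.16 to 3.90. The tRNA genes mt-Ta, mt-Tc and mt-Te had adjusted p of 0.0258, 0.0105 and 0.0181. Of these, mt-Ta lost its call without replicate 1 or 2 of Mettl14 KO (adjusted p = 0.0628 and 0.072), 1 or 2 of WT26 (0.0911 and 0.0527), 1 of Mettl3 KO (0.0711) or 2 of RBC (0.14), and its difference of 1.92 was 2.67 without replicate 2 of Mettl3 KO. mt-Te lost it without replicate 2 of Mettl14 KO (adjusted p = 0.0735), 1 of Mettl3 KO (0.0803), 1 of RBC (0.0665) or 1 or 2 of WT26 (0.0558 and 0.0574). mt-Tc lost it without replicate 2 of Mettl14 KO (adjusted p = 0.05001), and its difference of 2.35 was 3.55 without replicate 2 and 1.63 without replicate 1 of Mettl3 KO. The test sets 2 pairs of lines against each other that differ in the targeted gene and in the parent line, and these cannot be told apart.

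Nuclear genes that serve mitochondrial RNA were called in both directions, as were all tested genes, of which 25.5% rose and 27.0% fell in Mettl14 KO and 25.3% rose and 28.1% fell in Mettl3 KO cells. Of 18 tested genes for transcription and replication of mitochondrial DNA, 7 rose and 3 fell in Mettl14 KO and 4 rose and 5 fell in Mettl3 KO cells, with medians of 0.02 and -0.06. The lists were chosen with earlier results known, and these counts have no test of their own. Polrmt, the mitochondrial RNA polymerase, fell in Mettl3 KO cells by 1.03 (adjusted p = 1.2e-09), while Tefm, its elongation factor, fell in Mettl14 KO (-0.77, adjusted p = 0.000248) and rose in Mettl3 KO cells (0.65, adjusted p = 0.000484). Top1mt, the mitochondrial DNA topoisomerase, and Primpol, a primase-polymerase, rose in Mettl14 KO cells (1.16 and 0.78, adjusted p = 1.2e-05 and 3.0e-08), and Twnk, the mitochondrial DNA helicase, rose in Mettl3 KO cells (0.48, adjusted p = 1.4e-05). Mterf3 fell in both (-0.48 and -0.38, adjusted p = 6.3e-05 and 0.000567). Of 42 tested genes for processing, modification and decay of mitochondrial RNA, 10 rose and 11 fell in Mettl14 KO and 9 rose and 14 fell in Mettl3 KO cells, counts close to those shares for Mettl14 KO. In Mettl14 KO cells Mettl15 and Tbrg4 rose the most (0.68 and 0.50, adjusted p = 0.00505 and 5.3e-08), and Trmt61b and Trmt10c, both tRNA methyltransferase proteins, fell the most (-0.66 and -0.50, adjusted p = 9.1e-05 and 0.00136). In Mettl3 KO cells Mettl8 and Mrm2, both methyltransferases of mitochondrial RNA, rose the most (0.75 and 0.62, adjusted p = 6.2e-05 and 0.00919). Slirp, which with LRPPRC stabilises mitochondrial mRNAs, fell in Mettl3 KO cells by 0.99 (adjusted p = 7.3e-09), and Fastkd2, a protein of mitochondrial rRNA maturation, fell by 0.88 (adjusted p = 3.9e-11). Fastkd2 was also 0.88 higher in RBC than in WT26 (adjusted p = 8.5e-11), and its 1439 and 1457 normalised counts in Mettl3 KO lay within the range of WT26 (1479 and 1418). Of 9 tested regulators of mitochondrial biogenesis, 3 rose and 3 fell in Mettl14 KO and 4 rose and 3 fell in Mettl3 KO cells, too few for a share to be read against that of all genes.

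Most nuclear genes of the respiratory chain complexes, whose proteins join those encoded in mitochondria, fell in both knockouts. Of 83 tested, 8 rose and 55 fell in Mettl14 KO (median -0.38) and 1 rose and 70 fell in Mettl3 KO cells (median -0.73), where 25.5% of all tested genes rose and 27.0% fell in Mettl14 KO and 25.3% rose and 28.1% fell in Mettl3 KO cells. Ndufc2 and Ndufs7 rose the most in Mettl14 KO cells (0.61 and 0.46, adjusted p = 2.0e-05 and 0.00027), and Ndufs7 was the gene that rose in Mettl3 KO cells (0.35, adjusted p = 0.00312). Cox6b1 and Uqcrh fell most in Mettl14 KO cells (-1.16 and -1.06, adjusted p = 4.1e-10 and 2.3e-10), and Cox5b and Cox4i1 in Mettl3 KO cells (-1.34 and -1.27, adjusted p = 1.7e-11 and 1.1e-11). In Mettl14 KO cells the protein genes encoded in mitochondria had a positive median of 0.53, and in Mettl3 KO cells a negative one of -0.92. Between RBC and WT26, 36 of the 83 were higher and 4 lower (median 0.17), where 19.6% and 19.2% of all tested genes were. Mitochondrial ribosomal protein genes (77 tested) had 12 rises and 28 falls in Mettl14 KO and 15 rises and 34 falls in Mettl3 KO cells, nearer to those shares than the respiratory chain genes. Of 79 cytoplasmic ribosomal protein genes, 7 rose and 44 fell in Mettl14 KO and 1 rose and 77 fell in Mettl3 KO cells, and of 16 nuclear noncoding RNAs, 8 rose and 6 fell and 2 rose and 9 fell. In the inputs no gene of these lists was called except 3 nuclear noncoding RNAs that fell in Mettl3 KO cells.

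The inputs of MeRIP-seq measured the same lines after sonication, and here the spread between replicates was larger. The share of reads on mitochondrial genes was 3.09% and 2.2% (WT26), 3.36% and 3.16% (Mettl14 KO), 5.64% and 1.99% (RBC) and 2.79% and 1.42% (Mettl3 KO). Replicate 1 of RBC was the highest and replicate 2 of Mettl3 KO the lowest, and of the 3 pairs of lines compared only Mettl14 KO and WT26 did not overlap. The log2 ratio of mean log shares was 0.32 for Mettl14 KO over WT26, -0.75 for Mettl3 KO over RBC and 0.36 for RBC over WT26. Without replicate 1 of RBC the last of these was -0.39, and the ratio for Mettl3 KO over RBC was close to 0, with a value of -0.0010.

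No member was called between lines in the inputs by edgeR: 0 of 29 in each of the 3 comparisons, where 0.123% and 0.273% of all 22700 tested features were called higher and lower for Mettl14 KO, 0.181% and 0.573% for Mettl3 KO, and 0.304% and 0.278% for RBC against WT26. DESeq2 called 0 in each as well, and 1, 1 and 0 members had an unadjusted p under 0.05 in edgeR's test. Most members had the same sign: 28 of 29 log2 fold changes were positive in Mettl14 KO (median 0.71), 29 negative in Mettl3 KO cells (median -0.96) and 28 positive in RBC against WT26 (median 0.86). These counts of signs are a description, since the members share libraries and long transcripts and are not independent. mt-Nd1 had 16124 and 17774 (WT26), 24991 and 30424 (Mettl14 KO), 41123 and 16557 (RBC) and 18274 and 10992 (Mettl3 KO), in normalised counts. The log2 fold changes were 0.71 (SE 0.799) for Mettl14 KO over WT26, -0.98 (SE 0.802) for Mettl3 KO over RBC and 0.77 (SE 0.799) for RBC over WT26. The first of these equals the RNA-seq value to 2 decimals with a larger error, and in RBC the replicates lay on both sides of those of Mettl14 KO. mt-Co1 had 95143 and 109430.1 (WT26), 97265 and 124065 (Mettl14 KO), 169793 and 96470.2 (RBC) and 66300.1 and 58093 (Mettl3 KO), with log2 fold changes of 0.11, -1.10 and 0.38 in the same order of comparisons. Both Mettl3 KO inputs of mt-Co1 lay below the other 6.

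mt-Rnr2 had 276805 and 206923 (WT26), 298605 and 296668 (Mettl14 KO), 631618 and 163036 (RBC) and 281293 and 123419.9 (Mettl3 KO), and log2 fold changes of 0.30, -0.97 and 0.72. mt-Rnr1 had 87386 and 40048 (WT26), 95995 and 76428 (Mettl14 KO), 200965 and 31659 (RBC) and 83757 and 23515 (Mettl3 KO), and log2 fold changes of 0.44, -1.12 and 0.87. Replicate 1 of RBC was the highest input in both rRNAs. Without it the values for Mettl3 KO over RBC were 0.76 for mt-Rnr1 and 0.31 for mt-Rnr2, and those for RBC over WT26 were -1.01 and -0.57, each with its sign reversed. For RBC over WT26 mt-Co1 and mt-Nd1 then stood at -0.09 and -0.04. With the replicate number as a block, fitted separately in input and IP and chosen after seeing the data, mt-Co1, mt-Co3, mt-Nd4 and mt-Nd6 fell in Mettl3 KO cells (-1.09, -1.90, -0.98 and -0.97), and mt-Nd4l was higher in RBC than in WT26 (1.67). These genes are named because that fit called them, and the values of mt-Co3 and mt-Nd4l leave out the reads of their copies. With the copy added, mt-Nd4l had 1547 and 482 normalised counts in the RBC inputs against 629 and 556 in those of WT26, which overlapped, and mt-Co3 had 33265 and 17586 in RBC against 12289.8 and 9623 in Mettl3 KO, which did not. The block was not fitted to these sums.

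**Figure D3:**
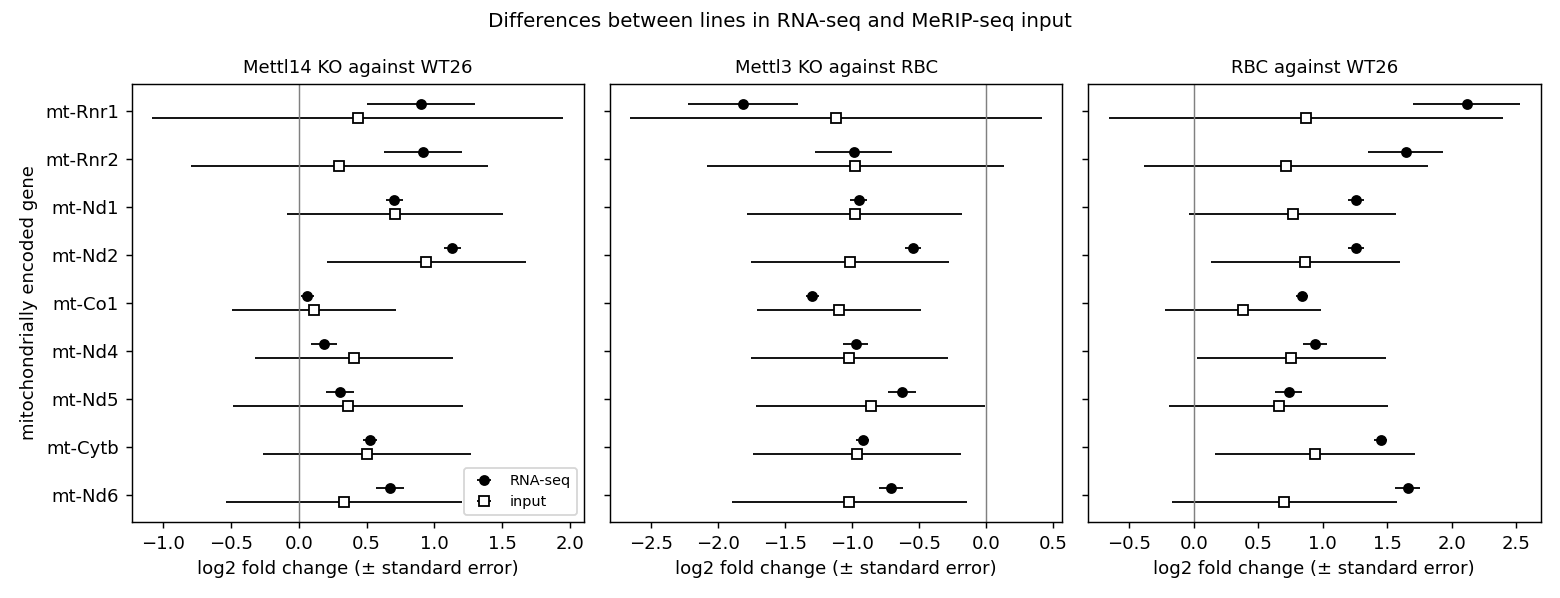
Log2 fold changes (horizontal axis) with their standard errors (bars) of both rRNAs and 7 protein genes in RNA-seq (filled circles) and in the inputs of MeRIP-seq (open squares), for Mettl14 KO against WT26, Mettl3 KO against RBC and RBC against WT26. Input values lie on the same side of 0 as those of RNA-seq for all 9 genes, with longer bars, as for mt-Nd1 with 0.71 and 0.71 in Mettl14 KO cells.

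IP over input measures how much of an RNA the m6A antibody recovered relative to the same RNA before it, and background binding is part of it. Few mitochondrial RNAs were called above or below their input in the fit that does not pair input and IP. The gap between the IP replicates described later enters the error of this fit, so a missing call does not show that IP and input were equal. In WT26 cells 1 of 29 members was enriched and 1 depleted, where 16.9% and 15.9% of all 22700 features were; in RBC cells 1 was enriched and 0 depleted (15.4% and 12.9%), in Mettl14 KO cells 1 and 0 (13.5% and 11.9%) and in Mettl3 KO cells 1 and 0 (2.74% and 2.19%). The enriched gene was mt-Ts1, the gene of a serine tRNA on the minus strand, in all 4 lines. Whether its reads came from the cut tRNA or from a longer transcript was not measured.

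In normalised counts, mt-Ts1 had 81.7 and 233 in the inputs and 494 and 1008 in the IPs of WT26, 115 and 271 in the inputs and 625 and 719.6 in the IPs of Mettl14 KO, 265 and 245 in the inputs and 1640.0 and 643 in the IPs of RBC and 79.9 and 122 in the inputs and 429.6 and 509.9 in the IPs of Mettl3 KO cells. In each line both IPs lay above both inputs. WT26 IPs exceeded inputs by a log2 fold change of 2.28 (SE 0.551, adjusted p = 0.0106), RBC IPs by 2.16 (SE 0.542, adjusted p = 0.0143), Mettl14 KO IPs by 1.83 (SE 0.546, adjusted p = 0.028) and Mettl3 KO IPs by 2.23 (SE 0.56, adjusted p = 0.0385). The enrichment was thus also measured in both knockout lines. mt-Ts1 lies inside the stretch copied on chromosome 1, overlaps mt-Co1 by 3 bases on the other strand, and has no annotated copy of its own there. Without 1 library the call was lost in several fits. In WT26 this held without input replicate 1 (1.68, adjusted p = 0.0865) or IP replicate 2 (1.69, adjusted p = 0.108). In RBC it held without input replicate 1 (2.22, adjusted p = 0.0758), input replicate 2 (2.10, adjusted p = 0.108) or IP replicate 1 (1.34, adjusted p = 0.0661). In Mettl14 KO cells it held without input replicate 1 (1.31, adjusted p = 0.198), input replicate 2 (2.54, adjusted p = 0.0786) or IP replicate 2 (1.74, adjusted p = 0.151). In Mettl3 KO cells it held without any 1 of the 4 libraries: input replicate 1 (1.94, adjusted p = 0.257), input replicate 2 (2.55, adjusted p = 0.193), IP replicate 1 (2.35, adjusted p = 0.0585) and IP replicate 2 (2.11, adjusted p = 0.265). The log2 fold change stayed positive in each, and in WT26 it was 3.19 without input replicate 2.

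The depleted gene in WT26 was mt-Ts2, the other serine tRNA, on the plus strand, with 57.4 and 87.8 normalised counts in the inputs and 21.0 and 13.5 in the IPs, a log2 fold change of -2.03 (SE 0.73, adjusted p = 0.0462). Both IPs lay below both inputs, and the call was lost without any 1 of the 4 WT26 libraries (input replicate 1, -2.32, adjusted p = 0.0866, input replicate 2, -1.71, adjusted p = 0.181, IP replicate 1, -2.40, adjusted p = 0.0694, IP replicate 2, -1.76, adjusted p = 0.239). Input and IP of a replicate came from 1 RNA, and with these pairs as a block 3 members were called in WT26 (mt-Th, the histidine tRNA, at -1.86 besides mt-Ts1 and mt-Ts2), 3 in RBC and 2 in each knockout line. Besides mt-Ts1, the block called mt-Nd6 enriched in RBC (1.25, adjusted p = 0.0255), Mettl14 KO (1.07, adjusted p = 0.0404) and Mettl3 KO cells (1.49, adjusted p = 0.0421), and mt-Te in RBC (1.21, adjusted p = 0.045). mt-Th, mt-Nd6 and mt-Te are named here after their values were seen, because the block called them. The shares of all features given above come from the fit of all libraries without a block. Counts called with the block or without 1 library have no such share beside them and cannot be weighed against all features. In RBC cells 9 members (mt-Co1, mt-Co2, mt-Nd1 and 6 tRNA genes) were called depleted without IP replicate 1 and 0 enriched, so the calls of that line depended on a single IP.

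Within each replicate, the log2 ratio of IP over input (pseudocount 1) was positive in 8 of 8 pairs for mt-Ts1 (2.41 to 2.62 over the lines in replicate 1 and 1.39 to 2.11 in replicate 2), mt-Nd6 (1.25 to 1.68 and 0.56 to 1.41) and mt-Te (1.35 to 1.71 and 0.24 to 1.04). These 3 genes are read from the minus strand, as is mt-Tp, which was positive in 4 of 8 pairs. On the plus strand, mt-Tw was positive in 7 of 8 pairs (0.75 to 1.03 and -0.58 to 0.46). mt-Nd2, mt-Co3, mt-Nd3 and mt-Nd4, also on the plus strand, were positive in 5 of 8, so the sign did not follow the strand throughout. mt-Co1, mt-Th, mt-Ts2 and mt-Tl2, all on the plus strand, were positive in 0 of 8 pairs, mt-Co1 with -0.88 to -0.14 in replicate 1 and -2.04 to -0.88 in replicate 2. The strand setting of the counting is not given in the sources used here, so reads of a minus-strand gene and of a plus-strand transcript across it cannot be told apart in either table.

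The replicates differed for most members. They also differed in depth: replicate 1 held 19302923 to 28441282 reads over the inputs and IPs, and replicate 2 held 9394163 to 16239506. The part of depth was not tested. In replicate 1, 16, 22, 22 and 23 of 28 members with a mean of at least 50 normalised counts had a positive ratio in WT26, in Mettl14 KO, in RBC and in Mettl3 KO, respectively, and in replicate 2 the counts were 5, 4, 3 and 7. Over all 13662 features of that level, 48.7% to 54.3% were positive in each replicate of each line. mt-Rnr2 had ratios of 0.32 to 1.04 in replicate 1 and -1.45 to -0.08 in replicate 2, and mt-Rnr1 -0.25 to 0.78 and -2.72 to -1.14. mt-Co2 with the reads of its copy added had 0.64 to 1.19 in replicate 1 and -0.90 to 0.33 in replicate 2, and mt-Nd3 with its copy 0.01 to 0.72 and -1.67 to -1.08. The order of the members had Spearman's rho between the replicates of 0.58 in WT26, 0.63 in Mettl14 KO, 0.56 in RBC and 0.89 in Mettl3 KO cells, across 28 genes that share their libraries and are not independent replicates. Across the same genes the median ratio of a replicate had a rho between -0.24 and 0.28 with gene length and with the percentage of each base.

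**Figure D4:**
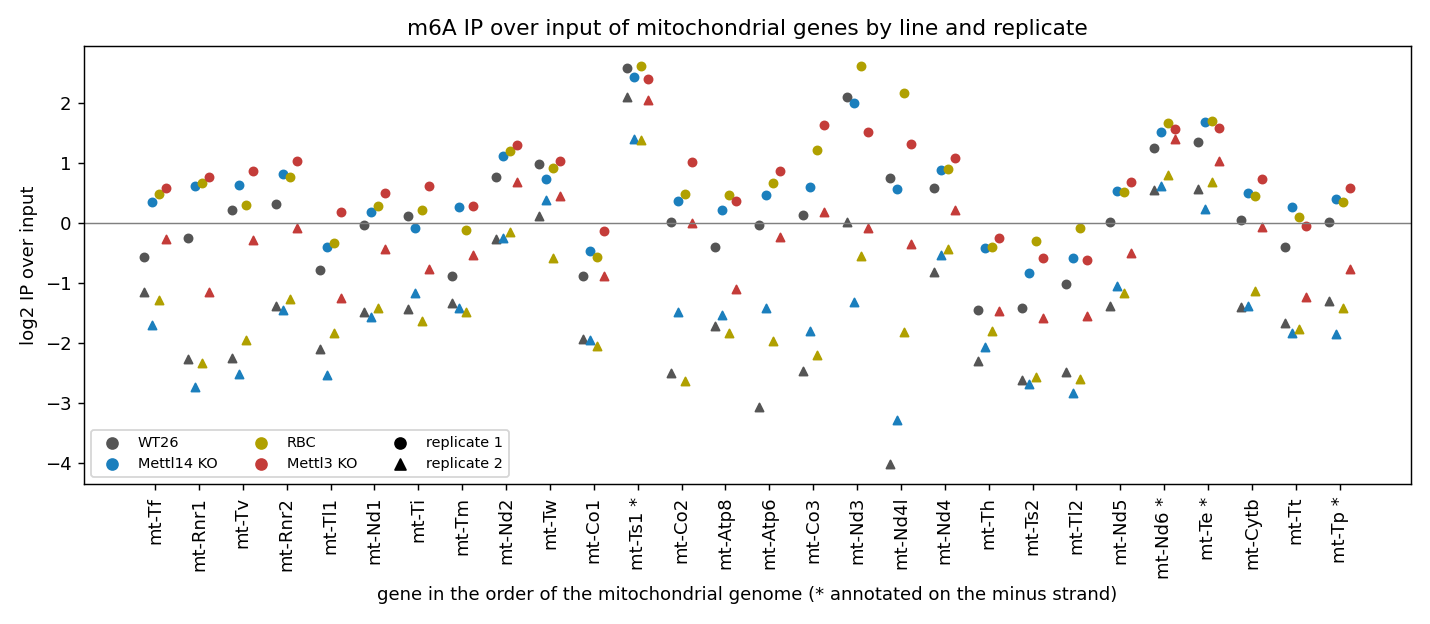
Log2 ratio of IP over input (vertical axis) for 28 members in each replicate of each line, in their order on the mitochondrial genome, with 1 colour per line, circles for replicate 1, triangles for replicate 2 and an asterisk for genes on the minus strand. mt-Ts1, mt-Nd6 and mt-Te lie above 0 in all 8 pairs, and most other members lie lower in replicate 2 than in replicate 1.

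Whether IP over input changed in the knockouts was tested by an interaction of line and IP in the fit. In Mettl14 KO against WT26 and in Mettl3 KO against RBC cells 0 of 29 members were called by edgeR, as were 0.0% of all 22700 features in either direction. DESeq2 called 0 members in both, and 0 members had an unadjusted p under 0.05 in edgeR's test. The differences ran from -0.45 to 1.05 (median 0.32) in Mettl14 KO and from -1.29 to 0.61 (median 0.19) in Mettl3 KO cells.

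Of the 9 rRNA and protein genes with a mean of at least 50 normalised counts, the 2 rRNAs in RBC differed most between replicates of RNA-seq. In RNA-seq the log2 ratio of replicate 1 to replicate 2 of mt-Rnr2 was 1.63 in RBC, or 3.1-fold, against -0.23 for WT26, 0.23 for the Mettl14 KO line and 0.33 for the Mettl3 KO line. For mt-Rnr1 it was 2.29 in RBC, or 4.89-fold. The 7 protein genes of the same libraries lay between -0.14 (mt-Nd1) and 0.11 (mt-Nd6), so that the rRNAs and the mRNAs of mitochondria did not move together there. Of 11879 genes with a mean of at least 50 normalised counts, 0.0926% had a ratio above that of mt-Rnr2 in RBC. The replicate difference of mt-Rnr2 was known when the members were chosen, so this share is a description and not a test.

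In the inputs and IPs of RBC the protein genes differed between replicates as well. mt-Rnr2 had a ratio of 1.95 and mt-Rnr1 of 2.67 in the RBC inputs, and the 13 protein genes lay between 0.82 (mt-Co1) and 3.58 (mt-Nd3), all above 0. The value of mt-Nd3 rested on 77 and 5 reads, and with its copy added it had 4189 and 1786 normalised counts in these inputs, a much smaller difference. In the inputs of Mettl3 KO cells mt-Rnr2 had 1.19 and the protein genes a median of 0.92, whereas in Mettl14 KO inputs mt-Rnr2 had 0.01 and the protein genes a median of 0.07. In the IPs replicate 1 was higher in all 4 lines: mt-Rnr2 had 2.12 in WT26, 2.28 in Mettl14 KO, 3.98 in RBC and 2.31 in Mettl3 KO cells, and the median of the protein genes ran from 1.58 to 3.01. The share of IP reads on mitochondrial genes was 4.24% and 1.04% (WT26), 6.82% and 1.45% (Mettl14 KO), 12.3% and 0.98% (RBC) and 6.53% and 1.52% (Mettl3 KO), with replicate 1 above replicate 2 in each.

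Gm26917 and CT010467.1, a pair of genes that take many reads of these libraries, did not move in the same way. In the RBC RNA-seq libraries their log2 ratios were 0.14 and -1.0, in the RBC inputs 0.57 and 1.43, and in the RBC IPs 1.37 and -2.96. Over all features of at least 50 normalised counts, the 5th and 95th percentiles of the ratio were -0.28 and 0.27 in RBC RNA-seq, -0.52 and 0.60 in the RBC inputs and -1.10 and 1.23 in the RBC IPs. Whether replicate 1 of RNA-seq and replicate 1 of MeRIP-seq came from 1 RNA is not stated in the sources used here, and the part of rRNA removal in these differences was not tested.

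**Figure D5:**
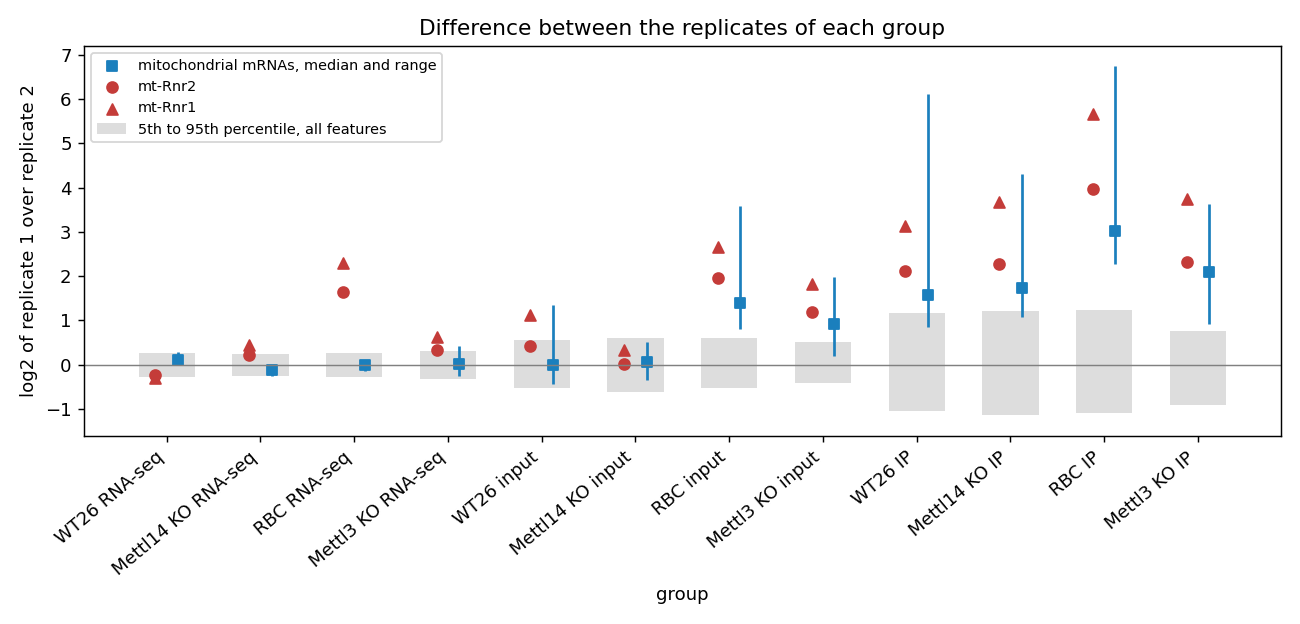
Log2 ratio of replicate 1 to replicate 2 (vertical axis) in the RNA-seq, input and IP libraries of each line, for mt-Rnr1 (triangles), mt-Rnr2 (circles) and the mitochondrial protein genes (squares for the median, bars for the range), over grey boxes from the 5th to the 95th percentile of all features. In RNA-seq the rRNAs of RBC stand apart at 2.29 and 1.63 with the protein genes near 0, and in the IPs both rRNAs and the ranges of the protein genes lie above 0 in all 4 lines.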

How the data were processed

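Gene counts were deposited by the authors for RNA-seq (8 libraries) and MeRIP-seq (16 libraries), unnormalised and 1 column per library. Per the methods and the submitters' processing notes, reads were trimmed with cutadapt 1.8.1 and aligned to GRCm38 with STAR 2.6.0c, and MeRIP-seq reads were counted with TEtranscripts in its multi mode. The counting tool, strand setting and handling of multiply aligned reads of RNA-seq are not given in the sources used here. The processing notes also list FastQC and DESeq2 1.26.0.

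The columns were mapped to libraries by their titles, and 0 columns were left over. RNA-seq (4 groups of 2) and MeRIP-seq (8 groups of 2) were each fitted once in edgeR 4.0.16 (R 4.3.3) with DESeq2 1.42.0 size factors, filterByExpr and the quasi-likelihood test, on all features, repeats of the MeRIP-seq table included. Calls are Benjamini-Hochberg adjusted p of at most 0.05, and 13 comparisons were made. The steps were tested on simulated counts. Ratios by replicate use normalised counts with a pseudocount of 1. Levels per length divide by gene length and library total.

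The rRNA and protein genes, called or extreme tRNA genes, and up to 2 rises and 2 falls of each list were named by rule. The members and lists were chosen with earlier results of these data known. Coordinates and sequences are from the GRCm38 annotation and genome, and the copy on chromosome 1 was found with blastn 2.17.0. Input and IP of a replicate came from the same RNA, and their deviations from the group means correlated at 0.195 to 0.280 in the 4 lines. Alternatives were TMM, library size alone, DESeq2's Wald test, other filters, only the compared libraries, a fold limit, replicate blocks and leaving out each library.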

Additional observations from a re-analysis of the deposited data

Results flagged for a closer look

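The change of a gene in Mettl14 KO against WT26 cells and its change in Mettl3 KO against RBC cells differed by edgeR's test of that difference for all 19 tested members, which is why each is listed here with its log2 difference (Mettl14 KO change minus Mettl3 KO change). No explanation was tested. The rRNAs differed by 2.71 (mt-Rnr1) and 1.90 (mt-Rnr2). The protein genes of complex I differed by 1.66 (mt-Nd1), 1.68 (mt-Nd2), 1.16 (mt-Nd4), 0.93 (mt-Nd5) and 1.38 (mt-Nd6), and mt-Cytb and mt-Co1 by 1.45 and 1.36. The tRNA genes differed by 3.57 (mt-Ti), 3.16 (mt-Tl1), 2.45 (mt-Tt), 2.39 (mt-Te), 2.35 (mt-Tc), 1.92 (mt-Ta), 1.84 (mt-Tw), 1.68 (mt-Tp), 1.59 (mt-Tq) and 1.47 (mt-Tm). The value of mt-Rnr1 was 1.15 and that of mt-Rnr2 0.87 without replicate 1 of RBC, and 3.44 and 2.50 without replicate 2 of RBC. Over the libraries left out in turn mt-Ti ran from 3.16 to 4.23, mt-Tl1 from 2.72 to 3.90, mt-Te from 1.93 to 2.97, mt-Tc from 1.63 to 3.55 and mt-Ta from 1.35 to 2.67. DESeq2 did not call mt-Rnr2, mt-Tq, mt-Tm, mt-Ta, mt-Tc and mt-Te.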

How the results depend on the processing

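In RNA-seq, counts of called members stayed within 1.5 times under normalization, filter, DESeq2, block and leave-one-out settings (11 to 13 in Mettl14 KO, 11 to 13 in Mettl3 KO, 17 to 18 in RBC and 16 to 19 for the difference without 1 library), but for a limit of 1 on the absolute log2 fold change, which left 8 and 4 in the knockouts. DESeq2 lost the calls of mt-Rnr2, mt-Nd5 and mt-Te in Mettl14 KO (adjusted p = 0.202, 0.248 and 0.0732), mt-Rnr2 and mt-Tc in Mettl3 KO (0.157 and 0.171), mt-Tm in RBC (0.11) and 6 of 19 for the difference (0.051 to 0.155). In Mettl14 KO, mt-Rnr1 and mt-Nd4 were called with only the compared libraries (adjusted p = 2.2e-09 and 0.0112) and without a filter (2.7e-110 and 0.00156). For mt-Rnr1 the fit without a filter took a far smaller spread at the same log2 fold change. The calls of fits without a filter, here and below, therefore carry less weight. In the inputs, without a filter on low counts 3, 3 and 5 members were called in Mettl14 KO, Mettl3 KO and RBC, and with only the compared libraries 6 and 3 in the knockouts. For IP over input, without a filter 13 were called in WT26, 8 in RBC, 8 in Mettl14 KO and 6 in Mettl3 KO, with only the compared libraries 7 in WT26 and 4 in Mettl14 KO, with DESeq2 4 in WT26, with TMM or library size alone 1 in WT26, and with library size alone 2 in RBC. Without 1 library the range was 0 to 1 in WT26, 0 to 9 in RBC, 0 to 3 in Mettl14 KO and 0 to 0 in Mettl3 KO, where a lone library is assumed to vary like the other groups. The causes were not tested.

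The pairing of input and IP, as a replicate block, gave 3 calls in RBC, 2 in Mettl14 KO and 2 in Mettl3 KO, besides 3 in WT26. In RNA-seq the replicate numbers were not taken to pair the lines, since the correlations of deviations were not over 0.1 in all 6 pairs (-0.17 to 0.45). They were 0.45 for Mettl3 KO with RBC, as high as in the inputs, 0.22 for Mettl14 KO with RBC and -0.07 for Mettl14 KO with WT26. A block on the number gave 15, 12 and 18 calls and 19 for the difference, with mt-Rnr1 called in Mettl14 KO (0.81, adjusted p = 0.0358). Inputs of the same number correlated at 0.25 to 0.45 and IPs at 0.60 to 0.81 across lines, a hint from the data only. A block on that number, separately in input and IP and chosen after seeing the data, called 4 input members in Mettl3 KO and 1 in RBC. The block changed no other count by over 1.5 times.

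Signs turned without 1 library, with these ranges of log2 fold changes over the libraries left out: for mt-Rnr2 in Mettl3 KO RNA-seq -1.58 to 0.048 (turned without RBC 1), and in the inputs of Mettl14 KO -0.022 to 1.10 for mt-Rnr1 (without WT26 2) and -0.070 to 0.28 for mt-Co1 (without Mettl14 KO 2). Without RBC input 1 they turned in Mettl3 KO for mt-Rnr1 (-2.31 to 0.76) and mt-Rnr2 (-1.69 to 0.31), and in RBC for mt-Rnr1 (-1.01 to 1.66), mt-Rnr2 (-0.57 to 1.38), mt-Co1 (-0.087 to 0.73) and mt-Nd1 (-0.036 to 1.28). The log2 share ratio of Mettl14 KO over WT26 in RNA-seq moved from 0.40 to 0.48 without Gm26917 and CT010467.1 in the total. The replicate difference of mt-Rnr2 in Mettl14 KO inputs moved from 0.01 to 0.047 with TMM and 0.12 with library size alone. With the reads of the chromosome 1 copies added, also chosen after seeing the data, 14, 16, 21 and 23 members were called in RNA-seq. Depth limits the tRNA genes, several of which had under 50 normalised counts.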
